A study of Homo sapiens with 10 samples.

Results

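The levels of 10 genes of the interstitial matrix were compared in SH-SY5Y cells, a human neuroblastoma line, that were stably transfected with SOD1(G93A) or with wild-type SOD1. They were the fibrillar collagen genes COL1A1, COL1A2, COL3A1, COL5A1 and COL5A2, the proteoglycan genes DCN and VCAN, the glycoprotein genes TNC and FN1, and CCDC80, which encodes a secreted matrix-associated protein. Each gene was read through a probe set annotated with that symbol alone, and where a gene had several, the one with the highest mean signal over the 10 arrays was used. All 10 genes were found, among 14232 genes named on the array. The probe sets were chosen by their mean signal, and the gene set was put together with earlier results of this comparison known, so the share of its genes that changed is a description and supports nothing further.

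There were 5 SOD1(G93A) arrays, samples 3, 9, 12, 15 and 18, and 5 wild-type SOD1 arrays, samples 2, 8, 11, 14 and 17. The G93A form of SOD1, the cytosolic superoxide dismutase, is found in familial amyotrophic lateral sclerosis. Both groups carried a transfected SOD1 construct and were kept in Geneticin (G418), so the comparison sets one transfected line against another, and untransfected cells were not analysed here. The sources used here do not say whether a line was 1 clone or a pool, what promoter drove the construct, or whether the samples within a group were separate cultures. The spread behind the p-values may thus be technical, since it is that among these samples alone.

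Fibrillar collagens are secreted as procollagens whose chains wind into a triple helix, lose their end pieces to specific proteases and assemble into fibrils. Type I collagen combines chains from COL1A1 and COL1A2, type III is built from COL3A1 chains alone, and type V, which combines COL5A1 and COL5A2 chains, helps to start fibrils and limits their width. Decorin and versican, fibronectin and tenascin-C surround these fibrils and link them to cells. Cultures of neuroblastoma lines can hold neuronal cells and substrate-adherent, mesenchymal-like cells, and the mesenchymal-like cells are known for making more matrix.

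The arrays gave 1 log2 intensity per probe set. Array medians lay between 6.26 and 6.34 and lower quartiles between 3.84 and 3.89. Pairs of arrays correlated at 0.990 to 0.994 inside a group and at 0.986 to 0.990 across the 2 groups. SOD1 averaged 9.55 ± 0.09 in SOD1(G93A) arrays and 9.78 ± 0.13 in wild-type SOD1 arrays (SD, n = 5 each), a difference that limma did not call (log2 fold change -0.23, SE 0.07, adjusted p = 0.107), and the gene-level signal cannot distinguish mutant from normal SOD1 RNA. The noradrenergic neuroblast identity of the cells was checked with 8 measured markers, of which 7 lay above the array median on average.

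Of the 10 matrix genes, 5 were higher and 1 was lower in the SOD1(G93A) line at an adjusted p of 0.05 or less by limma. COL3A1, CCDC80, DCN, VCAN and FN1 were the higher ones, and TNC was the lower one. COL1A1, COL1A2, COL5A1 and COL5A2 were not called. Over all named genes, 9.60% were called, 4.03% higher and 5.57% lower. With the 2-fold threshold that the labels add, 5 of the matrix genes remained, FN1 being the one that left, against 1.18% of all named genes. The median log2 fold change was 0.33 over the 10 genes and -0.00 over all named genes.

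**Figure D1:**
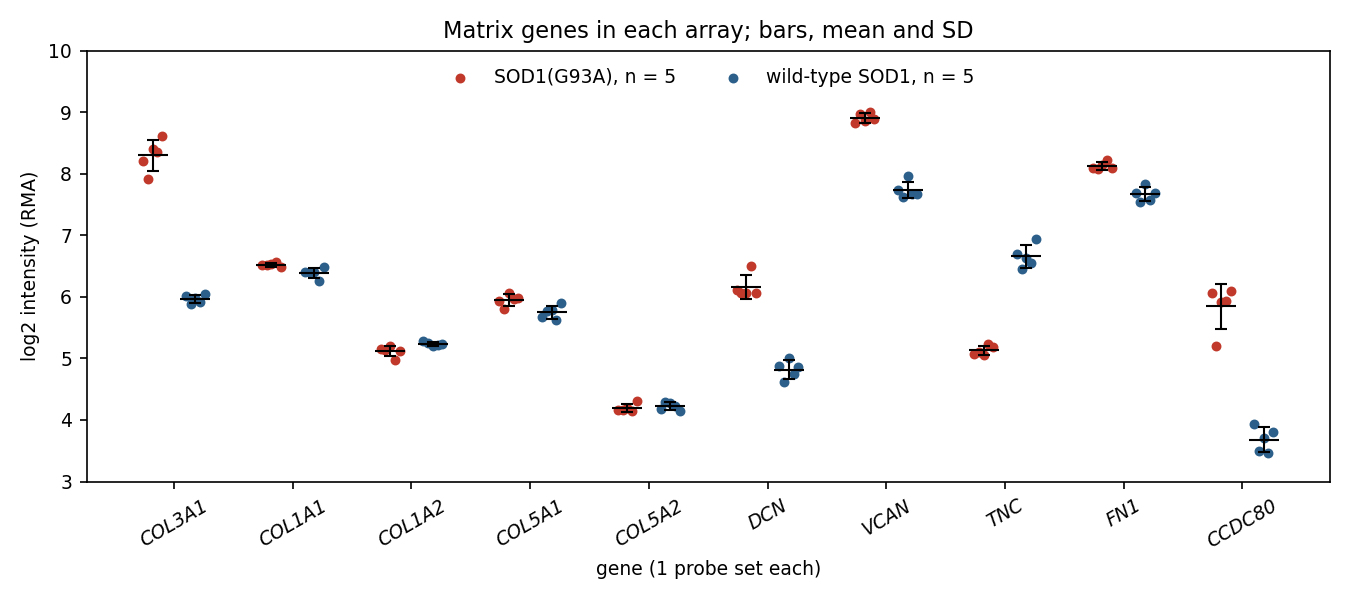
Log2 intensity of the 10 matrix genes in each array, with SOD1(G93A) arrays in red left of wild-type SOD1 arrays in blue; bars give the mean and SD of 5 arrays. COL3A1, DCN, VCAN, FN1 and CCDC80 lie higher and TNC lower in all SOD1(G93A) arrays, while the points of the type I and type V chains lie close together.

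COL3A1, the chain of type III collagen, changed the most of the 10 genes. Its log2 intensity was 8.21, 7.92, 8.41, 8.35 and 8.61 in SOD1(G93A) samples 3, 9, 12, 15 and 18, against 6.01, 5.88, 5.99, 5.92 and 6.04 in wild-type SOD1 samples 2, 8, 11, 14 and 17. The groups were separated by a gap of 1.88, and sample 9 was the lowest of its group. COL3A1 rose by 2.33 on the log2 scale (SE 0.11, limma adjusted p = 3.33e-07), or 5.04-fold with a 95% interval of 4.26 to 5.97. By absolute log2 fold change it stood at rank 16 of the 14232 named genes. Its SD was 0.25 in SOD1(G93A) arrays and 0.07 in wild-type SOD1 arrays, where the median SD over all probe sets was 0.139 and 0.129. In these bulk samples more cells of a matrix-producing type and more RNA per cell cannot be told apart.

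The type I chains differed little between the lines. COL1A1 read 6.52, 6.52, 6.54, 6.57 and 6.48 in SOD1(G93A) arrays, against 6.40, 6.41, 6.41, 6.26 and 6.48 in wild-type SOD1 arrays, in the same sample order. Its log2 fold change was 0.14 (SE 0.05, 95% interval 0.02 to 0.25, limma adjusted p = 0.186). COL1A2 read 5.15, 5.14, 5.20, 4.98 and 5.12 in SOD1(G93A) arrays, against 5.29, 5.25, 5.20, 5.22 and 5.23 in wild-type SOD1 arrays. The log2 fold change of COL1A2 was -0.12 (SE 0.05, 95% interval -0.23 to -0.00, adjusted p = 0.265). In both genes the groups met at the same value to 2 decimals without crossing, COL1A1 at 6.48 and COL1A2 at 5.20, and the fitted differences had opposite signs. The groups did not overlap in 8 of the 10 genes, these 2 included, against 11.4% of all named genes.

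The type V chains were not called either. COL5A1 read 5.93, 5.81, 6.07, 5.96 and 5.99 in SOD1(G93A) arrays, against 5.67, 5.77, 5.79, 5.63 and 5.90 in wild-type SOD1 arrays, and the groups overlapped. Its log2 fold change was 0.20 (SE 0.07, 95% interval 0.05 to 0.35, limma adjusted p = 0.135). COL5A2 read 4.17, 4.16, 4.20, 4.14 and 4.31 in SOD1(G93A) arrays, against 4.18, 4.30, 4.27, 4.23 and 4.14 in wild-type SOD1 arrays. Its log2 fold change was -0.03 (SE 0.05, 95% interval -0.15 to 0.09, adjusted p = 0.861). The upper bounds of the 4 type I and type V chains, 0.25, -0.00, 0.35 and 0.09, all lay below the lower bound of 2.09 for COL3A1. COL1A2 averaged 5.12 in SOD1(G93A) and 5.24 in wild-type SOD1 arrays, COL5A1 5.95 and 5.75, and COL5A2 4.20 and 4.23. All these means lay below the array medians, and RMA compresses differences of dim probes, so a change in these chains may be understated. Means below the medians were also found for COL3A1 in wild-type SOD1 arrays (5.97) and TNC in SOD1(G93A) arrays (5.13). DCN was below them in both groups (6.16 in SOD1(G93A), 4.82 in wild-type SOD1). The sizes given for COL3A1, TNC and DCN carry the same limit.

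**Figure D2:**
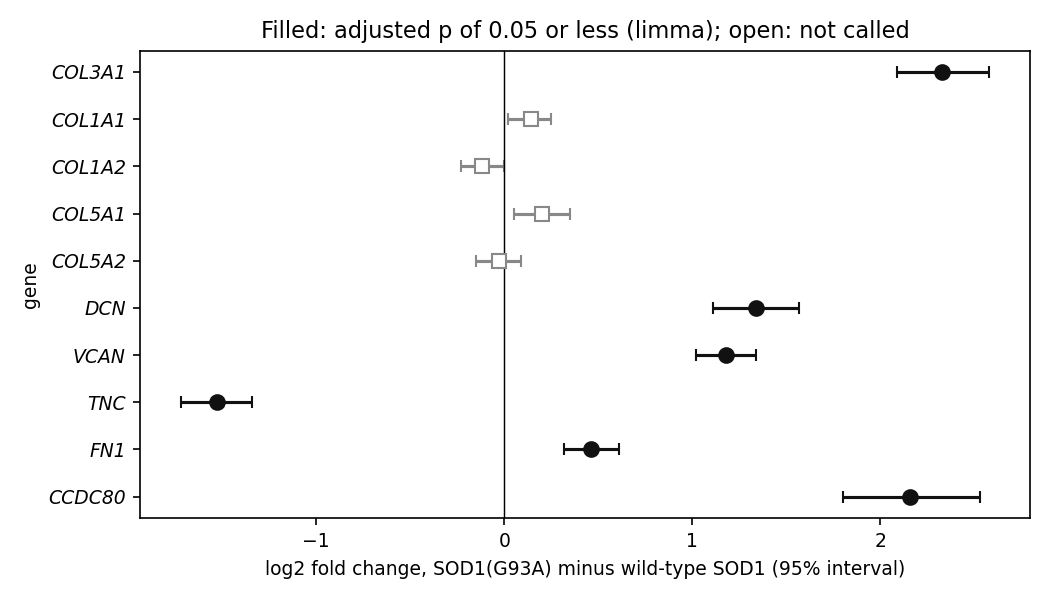
Log2 fold change of each matrix gene, SOD1(G93A) minus wild-type SOD1, with its 95% interval from limma; filled circles passed an adjusted p of 0.05 and open squares did not. COL3A1 at 2.33 and CCDC80 at 2.16 lie farthest to the right, TNC at -1.53 lies to the left, and the type I and type V chains lie between -0.12 and 0.20.

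The promoter table held 5 of the 10 genes, and the 4 of them that were called are shown here because they are the called genes whose start-site sequence can be set beside their direction of change. Each line gives the 250 bases before the annotated start, 5′ to 3′, from RefSeq. Capitals mark matches on either strand to the motifs searched: TATAA for the TATA box, CCAAT for the CCAAT box, GGGCGG for the GC box, TGACGTCA for the cyclic AMP response element, TGANTCA for AP-1 factors, CATTCC for TEAD factors, and the CArG box of serum response factor.
FN1 (GRCh38.p14, chr2:215436069-215436318, minus strand): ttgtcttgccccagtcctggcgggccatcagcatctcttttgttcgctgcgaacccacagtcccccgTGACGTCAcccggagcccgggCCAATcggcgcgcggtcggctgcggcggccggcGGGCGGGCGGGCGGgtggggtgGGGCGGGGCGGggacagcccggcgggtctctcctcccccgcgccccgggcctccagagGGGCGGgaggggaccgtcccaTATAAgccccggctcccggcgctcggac
VCAN (GRCh38.p14, chr5:83471494-83471743, plus strand): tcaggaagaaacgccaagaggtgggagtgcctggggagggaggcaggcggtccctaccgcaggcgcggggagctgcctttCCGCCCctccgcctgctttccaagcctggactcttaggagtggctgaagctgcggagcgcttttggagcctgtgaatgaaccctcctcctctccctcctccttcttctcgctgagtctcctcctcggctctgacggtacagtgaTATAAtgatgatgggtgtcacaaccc
CCDC80 (GRCh38.p14, chr3:112641144-112641393, minus strand): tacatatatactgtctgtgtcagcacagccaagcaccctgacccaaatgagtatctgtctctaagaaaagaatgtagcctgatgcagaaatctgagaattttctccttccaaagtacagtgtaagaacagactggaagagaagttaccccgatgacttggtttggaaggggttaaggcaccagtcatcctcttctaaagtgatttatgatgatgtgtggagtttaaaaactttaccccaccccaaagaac
TNC (GRCh38.p14, chr9:115118158-115118407, minus strand): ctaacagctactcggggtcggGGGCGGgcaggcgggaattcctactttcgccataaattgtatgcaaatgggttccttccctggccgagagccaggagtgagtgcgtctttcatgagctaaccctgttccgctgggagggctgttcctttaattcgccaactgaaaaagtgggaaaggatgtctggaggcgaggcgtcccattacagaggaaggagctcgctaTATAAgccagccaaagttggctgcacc
TATAA on the gene strand began 28 bases before the start in FN1, 26 in VCAN and 27 in TNC. Over 35114 annotated starts, 4.34% had TATAA on the gene strand within 40 bases, and 18.9% had it anywhere in the 250 bases on either strand. The 3 genes with it included 2 that rose and 1 that fell. FN1 also held TGACGTCA, which 1.65% of the starts have, and CCAAT, which 32.0% have. GGGCGG was matched in FN1 6 times, partly overlapping, and once each in VCAN and TNC, and 42.6% of starts hold it. CCDC80 had none of these motifs in this window and a GC content of 42.0%, against 60.8% in VCAN, 54.8% in TNC and 76.4% in FN1, and 16.4% of starts were lower than CCDC80. COL5A1, which was not called, had 2 starts in the promoter table, and only the first listed was examined. Its window had a GC content of 74.0% and, of these motifs, GGGCGG alone. The AP-1 motif, the TEAD motif and the CArG box, which 6.57%, 11.9% and 1.16% of starts hold, were matched in none of the 5 windows. A match describes these letters and was not tested as a binding site.

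Both proteoglycan genes were higher in the SOD1(G93A) line. DCN encodes decorin, a small leucine-rich proteoglycan that coats collagen fibrils and can bind TGF-beta. It read 6.11, 6.06, 6.07, 6.50 and 6.07 in SOD1(G93A) arrays, against 4.87, 4.61, 5.01, 4.75 and 4.86 in wild-type SOD1 arrays. Sample 15 stood above the other 4 SOD1(G93A) arrays, and the groups did not overlap. DCN rose by 1.34 (SE 0.10, limma adjusted p = 1.20e-05), or 2.53-fold, and by 1.26 without sample 15. VCAN encodes versican, a large chondroitin sulfate proteoglycan that binds hyaluronan. It read 8.82, 8.98, 8.86, 9.00 and 8.89 in SOD1(G93A) arrays, against 7.74, 7.62, 7.96, 7.67 and 7.68 in wild-type SOD1 arrays. The 5 SOD1(G93A) values lay within a narrow span and above every wild-type value. VCAN rose by 1.18 (SE 0.07, adjusted p = 2.00e-06), or 2.26-fold.

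TNC and FN1, the cell-binding glycoproteins, moved in opposite directions. TNC encodes tenascin-C, a large glycoprotein of developing and injured tissue that modulates cell adhesion. It read 5.08, 5.11, 5.05, 5.23 and 5.18 in SOD1(G93A) arrays, against 6.70, 6.46, 6.64, 6.55 and 6.94 in wild-type SOD1 arrays. All SOD1(G93A) arrays were below all wild-type arrays, by a gap of 1.23. TNC fell by 1.53 on the log2 scale (SE 0.09, limma adjusted p = 1.27e-06), which makes it 2.89-fold lower in the SOD1(G93A) line. FN1 encodes fibronectin, which links collagens to integrins. It read 8.09, 8.08, 8.15, 8.23 and 8.10 in SOD1(G93A) arrays, against 7.69, 7.55, 7.83, 7.57 and 7.69 in wild-type SOD1 arrays. The groups did not overlap, and FN1 rose by 0.46 (SE 0.06, adjusted p = 0.000986), or 1.38-fold.

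FN1 was the only one of the 10 genes with another probe set under its symbol alone, and the 2 did not move alike. The other probe set averaged 6.08 ± 0.15 in SOD1(G93A) arrays and 6.08 ± 0.29 in wild-type SOD1 arrays (SD, n = 5 each), a log2 fold change of -0.00 (95% interval -0.30 to 0.30, limma adjusted p = 1.0). The difference between the 2 probe sets within an array was 2.05 ± 0.13 in SOD1(G93A) and 1.59 ± 0.21 in wild-type SOD1 arrays (exact permutation test, 2-sided, p = 0.00794, the smallest that 252 splits allow). That test was not among the planned comparisons, and FN1 belongs to a set chosen with earlier results known, so its p-value is a description. When the 2 were averaged, the FN1 difference was 0.23 and lost its call (adjusted p = 0.204). Probe set numbers were then compared, only among single-symbol probe sets of chromosome 2 genes whose strand the promoter table gives. Of these, the 20 nearest in number to the one used all name minus-strand genes, as FN1 is. The 20 nearest to the other probe set all name genes of the plus strand. Which strand its probes read was not tested.

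CCDC80 encodes a secreted protein that associates with the matrix. It read 6.06, 5.21, 5.92, 5.94 and 6.10 in SOD1(G93A) arrays, against 3.93, 3.50, 3.71, 3.47 and 3.80 in wild-type SOD1 arrays. Sample 9 was the lowest SOD1(G93A) array and still lay above all wild-type arrays. CCDC80 rose by 2.16 (SE 0.17, limma adjusted p = 1.21e-05). In 4 of 5 wild-type SOD1 arrays it was under the lower quartile of each array, a range in which RMA compresses differences, and the deposited table gives no detection calls, so the size of the difference is uncertain.

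The 10 genes lie on 7 chromosomes, with COL3A1, COL5A2 and FN1 on chromosome 2 and COL5A1 and TNC on chromosome 9. COL3A1 and COL5A2 are next to each other in the RefSeq gene order among measured genes. COL3A1 rose by 2.33 while COL5A2 differed by -0.03 and DIRC1, on the other side of COL3A1, by -0.08 (SE 0.08). DIRC1 lay under the lower quartile in all 10 arrays, so a difference in it could be missed. Of the 18 measured neighbours that are not themselves in the set, 0 were called higher and 2 lower by limma, against 9.60% called over all named genes, and 0 were higher at an unadjusted p under 0.05 or by the unmoderated test. The 2 were RXRA, a retinoid receptor, and OLFM1, a secreted olfactomedin protein, on either side of COL5A1. RXRA averaged 6.34 ± 0.13 in SOD1(G93A) and 7.14 ± 0.14 in wild-type SOD1 arrays (SD, n = 5 each), and fell by 0.80 (adjusted p = 0.000154). OLFM1 averaged 5.66 ± 0.13 in SOD1(G93A) and 6.51 ± 0.14 in wild-type SOD1 arrays, and fell by 0.85 (adjusted p = 8.73e-05). LUM, the lumican gene beside DCN, had a log2 fold change of 0.29 (SE 0.13, adjusted p = 0.289), and HAPLN1, the link protein gene beside VCAN, one of -0.03 (SE 0.12, adjusted p = 0.941). HAPLN1 also lay under the lower quartile in all 10 arrays.

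**Figure D3:**
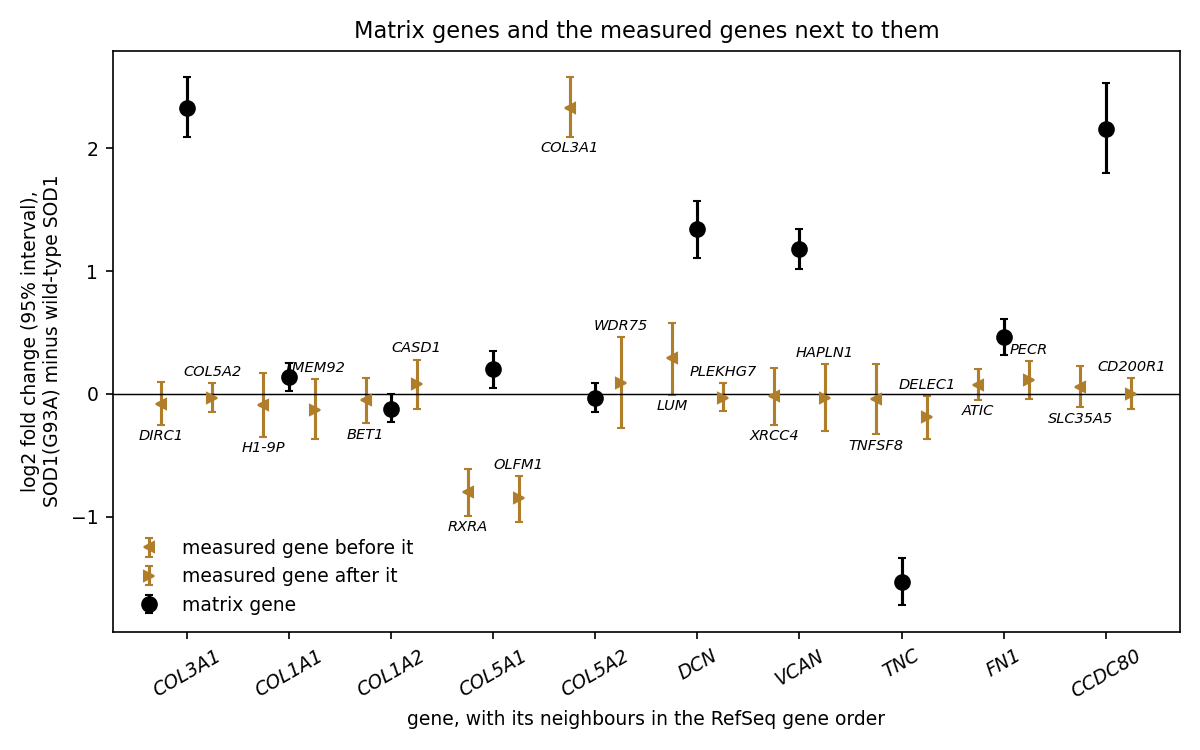
Log2 fold change with its 95% interval of each matrix gene (black circles) and of the measured gene before and after it in the RefSeq gene order (brown triangles), SOD1(G93A) minus wild-type SOD1. Apart from COL3A1 beside COL5A2, the neighbours lie near 0 except RXRA at -0.80 and OLFM1 at -0.85 beside COL5A1.

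The wider matrix was described with 7 lists of related genes, 178 of 197 measured. Of these, 23 were higher and 14 lower by limma, a share of 20.8% called, where 4.03% of all named genes were higher, 5.57% lower and 9.60% called. The lists were chosen with earlier results known, so the share is a description. The median log2 fold change was -0.02. Among 21 other fibril-forming and fibril-associated collagens, 1 rose and 0 fell, and 0 were lower at an unadjusted p under 0.05 or by the unmoderated test. The gene that rose was COL16A1, a fibril-associated collagen, by 0.33 (SE 0.05, adjusted p = 0.00351). COL6A2, the probe set with the highest mean signal of that list, averaged 8.22 ± 0.11 in SOD1(G93A) and 8.06 ± 0.14 in wild-type SOD1 arrays and was not called (adjusted p = 0.324). The share called in the list was 4.76%. On average 3 of the 21 lay above the array median and 8 below the lower quartile, so differences in many of them could be missed.

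Of 26 genes of collagen maturation and cross-linking, 3 rose and 0 fell by limma. At an unadjusted p under 0.05, 5 were higher and 1 was lower, and the unmoderated test called 3 higher and 0 lower. ADAMTS3, a protease of procollagen amino ends, read 7.65, 7.75, 7.70, 7.74 and 7.78 in SOD1(G93A) arrays, against 6.67, 6.57, 6.70, 6.61 and 6.61 in wild-type SOD1 arrays. It rose by 1.09 (SE 0.05, adjusted p = 2.73e-07) with no overlap between the groups. Its relative ADAMTS14 rose by 0.43 (SE 0.07) and LOXL2, a lysyl oxidase that cross-links collagens, by 0.42 (SE 0.09). PCOLCE, an enhancer of procollagen carboxy-end cleavage, averaged 11.43 ± 0.13 in SOD1(G93A) and 11.48 ± 0.11 in wild-type SOD1 arrays and was not called. The share called was 11.5%, near the 9.60% of all named genes, and the median log2 fold change of the list was -0.03.

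Among 18 other proteoglycan, link protein, tenascin and hyaluronan synthase genes, 0 rose and 2 fell by limma, with 0 higher at an unadjusted p under 0.05 or by the unmoderated test. HAPLN3, a link protein, fell by 0.55 (SE 0.09, adjusted p = 0.00283) and TNR, the neural tenascin-R, by 0.47 (SE 0.07, adjusted p = 0.00177). BCAN, which encodes brevican, averaged 6.52 ± 0.08 in SOD1(G93A) and 6.57 ± 0.02 in wild-type SOD1 arrays and was not called. The share called was 11.1%, also near the 9.60% of all named genes. On average 2 of the 18 lay above the array median and 8 below the lower quartile, with the same limit.

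Of 39 elastic-fibre and matricellular genes, 9 rose, 2 fell and 28 were not called. SPARCL1, a relative of osteonectin, rose by 0.68 (SE 0.11). It was under the lower quartile in all wild-type SOD1 arrays and in 3 of 5 SOD1(G93A) arrays. VTN, the vitronectin gene, rose by 0.51 (SE 0.10) and FBN1, the gene of the microfibril protein fibrillin-1, by 0.50 (SE 0.08). MFAP4, a microfibril-associated gene, averaged 10.39 ± 0.12 in SOD1(G93A) and 9.98 ± 0.21 in wild-type SOD1 arrays and rose by 0.41 (SE 0.10, adjusted p = 0.0336), a call lost under 8 of 18 alternatives (adjusted p up to 0.136), among them the omission of SOD1(G93A) sample 12, 15 or 18 or of wild-type SOD1 sample 2, 8 or 17. SPOCK1, a testican proteoglycan, read 4.51, 4.81, 4.78, 4.50 and 5.09 in SOD1(G93A) arrays, against 6.11, 5.90, 6.59, 6.11 and 6.33 in wild-type SOD1 arrays. It fell by 1.47 (SE 0.14, adjusted p = 8.73e-05), and EMILIN1, an elastic-fibre glycoprotein gene, fell by 0.61 (SE 0.10). The share called was 28.2%, against 9.60% of all named genes, and the list's median log2 fold change was 0.02.

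Receptors that bind these proteins changed in both directions, 3 of 20 higher and 5 lower. ITGA9, an integrin chain that binds tenascin-C, read 6.30, 6.01, 6.42, 6.05 and 6.24 in SOD1(G93A) arrays, against 7.98, 7.66, 7.99, 8.12 and 7.81 in wild-type SOD1 arrays, and fell by 1.71 (SE 0.10). The groups were far apart, as they were for SDC2, the syndecan-2 gene, which fell by 1.23 (SE 0.07). ITGA2, the alpha chain of a collagen-binding integrin, fell by 0.79 (SE 0.08, adjusted p = 0.000128). CD44, the hyaluronan receptor, rose by 0.47 (SE 0.07) and ITGB3, an integrin chain of vitronectin and fibronectin receptors, by 0.34 (SE 0.07). ITGB1, the beta chain shared by the collagen-binding integrins, averaged 9.86 ± 0.16 in SOD1(G93A) and 9.69 ± 0.08 in wild-type SOD1 arrays and was not called (adjusted p = 0.306). The share called was 40%, against 9.60% of all named genes, and the median log2 fold change of the list was -0.04.

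Of 24 matrix turnover genes, 3 rose and 2 fell. TIMP1, an inhibitor of matrix metalloproteinases, read 10.44, 10.09, 10.19, 10.36 and 10.16 in SOD1(G93A) arrays, against 8.87, 8.66, 8.94, 8.47 and 9.01 in wild-type SOD1 arrays, and rose by 1.46 (SE 0.11). MMP15, a membrane-bound metalloproteinase, rose by 0.57 (SE 0.09), and FAP, a fibroblast protease, rose by 0.43 (SE 0.06) while staying below the lower quartile in all 10 arrays. ADAMTS1, which cleaves versican, fell by 1.03 (SE 0.07, adjusted p = 4.49e-06) and MMP2, a gelatinase, by 0.38 (SE 0.08). The MMP2 call was lost without samples 17 and 18 together (adjusted p = 0.0785). TIMP2 averaged 10.91 ± 0.08 in SOD1(G93A) and 11.13 ± 0.09 in wild-type SOD1 arrays and was not called (adjusted p = 0.0693). The share called in the list was 20.8%, against 9.60% of all named genes.

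TGF-beta is a known inducer of collagen and fibronectin genes. Of 30 pathway members and fibroblast-state regulators, 4 rose and 3 fell. ENG, the TGF-beta coreceptor endoglin, read 7.51, 7.33, 7.45, 7.72 and 7.39 in SOD1(G93A) arrays, against 6.00, 6.18, 6.10, 6.10 and 6.27 in wild-type SOD1 arrays, and rose by 1.35 (SE 0.08). The ligand gene TGFB3 rose by 0.72 (SE 0.05) and the transcription factor gene SNAI1 by 0.71 (SE 0.16). Its relative SNAI2 fell by 1.03 (SE 0.10), SMAD3, a transducer of the pathway, by 0.62 (SE 0.09) and ZEB2, a transcription factor gene, by 0.39 (SE 0.10). The SNAI1 call was lost under 2 of 17 alternatives (adjusted p up to 0.0525), without SOD1(G93A) sample 15 and by the unmoderated test. The ZEB2 call was lost under 11 of 18 (adjusted p up to 0.0895), among them the omission of SOD1(G93A) sample 3, 9, 12 or 15 or of wild-type SOD1 sample 2, 11, 14 or 17. TWIST1 averaged 9.78 ± 0.16 in SOD1(G93A) and 10.08 ± 0.15 in wild-type SOD1 arrays and was not called (adjusted p = 0.103). In the TGF-beta list 23.3% were called, against 9.60% of all named genes.

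**Figure D4:**
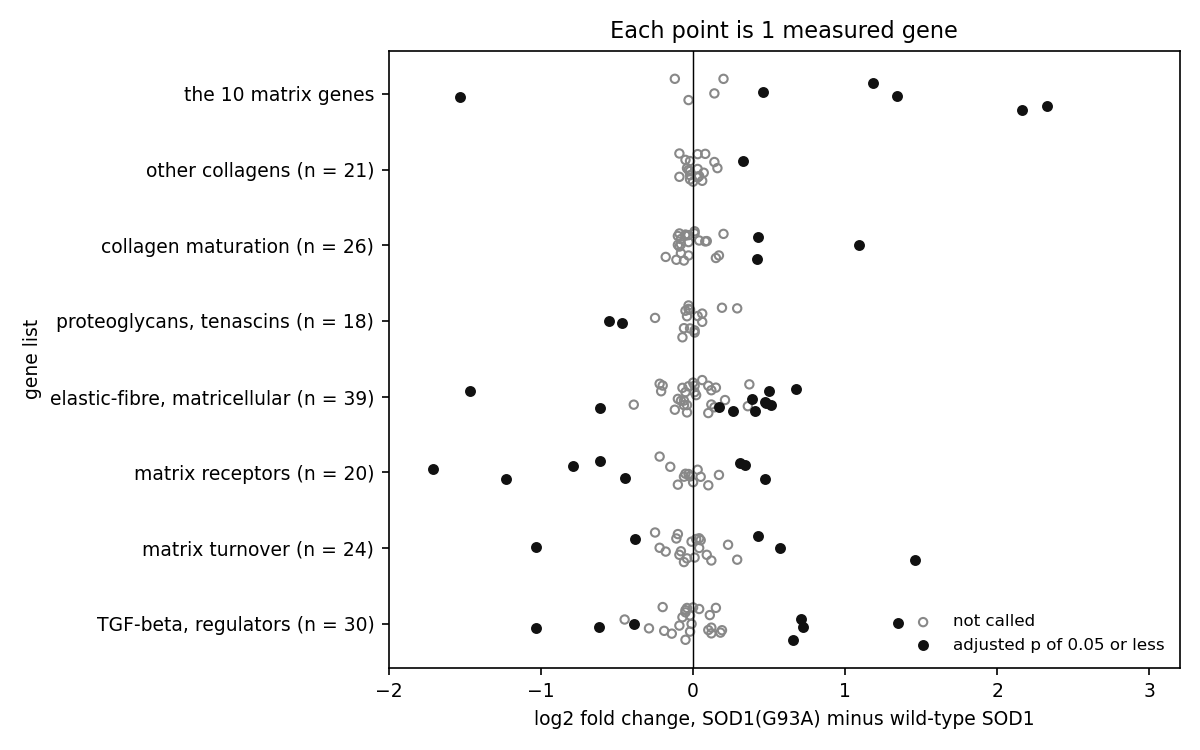
Log2 fold change, SOD1(G93A) minus wild-type SOD1, of each measured gene in the 10 matrix genes and the 7 related lists; black points passed an adjusted p of 0.05 by limma and open points did not. Most points of the related lists lie near 0, with ITGA9 at -1.71 and TIMP1 at 1.46 the farthest of them on either side.

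Markers of other cells were set beside these differences. Over all named genes, 4.03% were called higher and 5.57% lower by limma. Of 8 measured mesenchymal and fibroblast markers, 2 were higher and 0 lower by limma, with 1 lower at an unadjusted p under 0.05 and 0 by the unmoderated test. The 2 were FAP, given above, and VIM, the vimentin gene, which rose by 0.37 (SE 0.08). The mean level of the list lay between 5.84 and 5.89 in SOD1(G93A) arrays and between 5.68 and 5.86 in wild-type SOD1 arrays. PRRX1, TCF21, MFAP5 and FAP were under the lower quartile in all 10 arrays, and THY1 and PDGFRB were not called (adjusted p = 0.494 and 0.166). Of 6 Schwann and glial markers 1 was higher, S100B, by 0.73 (SE 0.11), and it was under the lower quartile in 4 of 5 wild-type SOD1 arrays. The mean of the glial list lay between 4.58 and 4.80 in SOD1(G93A) and between 4.55 and 4.63 in wild-type SOD1 arrays. By limma and by the unmoderated test, 0 of 7 immune and 0 of 8 endothelial markers were called, and 0 had an unadjusted p under 0.05. The immune marker PTPRC and the endothelial marker PECAM1 lay below the lower quartile in all 10 arrays. Of the 8 noradrenergic neuroblast markers, CHGA rose by 1.06 (SE 0.12) and DDC by 0.28 (SE 0.06), GATA3 fell by 0.38 (SE 0.07), and 5 were not called. The mean level of that list lay between 9.49 and 9.68 in SOD1(G93A) and between 9.35 and 9.50 in wild-type SOD1 arrays. The part of mesenchymal-like, glial or neuroblast cells in the matrix differences was not tested.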

How the data were processed

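Affymetrix exon arrays measured RNA of 10 SH-SY5Y samples, 5 per group. The deposited values are log2 intensities for 22011 probe sets, made by the authors with RMA per the submitters' processing notes and oneChannelGUI 1.6.5 per the labels. RMA makes array distributions alike, so a shift of all genes would not show, and compresses differences of dim probes. The build and the filters are not stated there, and no detection calls come with the table. Precision is limited by the number of arrays.

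Platform annotation gave 14432 probe sets 1 symbol, 2408 several and 5171 none. Symbols were updated through gene identifiers to RefSeq (GCF_000001405.40, GRCh38.p14), in which 28 had no match. Each of 14232 genes is represented by its probe set with the highest mean. Groups came from sample titles. The values were fitted with limma 3.58.1 in R 4.3.3 (lmFit, eBayes, 2-sided). P-values were adjusted by Benjamini and Hochberg's method across the 22011 probe sets, with a threshold of 0.05, after a check on simulated data. A log2 fold change of 1 was a second threshold. No set test was run. The matrix genes and related lists were chosen with earlier results of these data known. From each related list the text names up to 3 called genes per direction whose groups do not overlap, and the probe set with the highest mean signal. It also gives neighbours of the matrix genes. Where a count is 5 or fewer, its genes may have been named after their values were seen. Alternatives were an intensity trend with a robust prior, no moderation, probe sets brighter than the median only, median-centred arrays, array weights, averaged probe sets and leaving out each array. Leaving out samples 17 and 18 together, and a block of neighbouring sample numbers, were added after the data were seen.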

Additional observations from a re-analysis of the deposited data

Results flagged for a closer look

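Dixon's criterion for 5 samples was applied to 88 sets of 5 values (44 genes in 2 groups). In 4 of the sets, 1 value stood apart from the other 4 of its group. Chance meets the criterion in about 1 set in 20, so about as many would be met by chance alone over the 88 sets. DCN was at 6.50 in SOD1(G93A) sample 15, where the other 4 arrays lay between 6.06 and 6.11. CCDC80 was at 5.21 in SOD1(G93A) sample 9, against 5.92 to 6.10 in the others, and its log2 fold change without that array was 2.32. TWIST1 was at 9.50 in the same sample, against 9.81 to 9.90, and its log2 fold change without it was -0.22 (limma adjusted p = 0.175). TIMP2 was at 11.28 in wild-type SOD1 sample 17, against 11.06 to 11.12, and its log2 fold change without it was -0.18 (limma adjusted p = 0.133).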

How the results depend on the processing

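Across the 18 alternatives, the called matrix genes kept their direction and their call wherever they were tested, except FN1, which lost its call when its 2 probe sets were averaged. The log2 fold change ran from 2.26 to 2.43 for COL3A1, from 2.10 to 2.32 for CCDC80, from 1.26 to 1.39 for DCN, from 1.15 to 1.24 for VCAN and from -1.58 to -1.46 for TNC. COL1A1, COL1A2, COL5A1 and COL5A2 were called under none of the alternatives (limma or unmoderated, lowest adjusted p 0.0827). Restricting the fit to probe sets brighter than the median one left 4 of the 10 matrix genes and 77 of the 178 related genes tested. By that construction the counts were 3 matrix genes higher and 0 lower, 13 related genes higher, and 92 probe sets past both thresholds, against 192 over all probe sets. The number of called probe sets was 1643, and between 1274 and 1562 without any 1 array. Over the 44 named genes and these alternatives, 24 of 773 comparisons lost a call, 5 gained one and 0 reversed. TIMP2 gained its call under 3 alternatives (adjusted p from 0.0438) and TWIST1 without wild-type SOD1 sample 8 (adjusted p = 0.0489). The groups share no sample number and the labels name no pairing. With neighbouring numbers taken as a replicate block, an alternative chosen after seeing the data, 1213 probe sets were called, with 5 matrix genes higher and 1 lower and 18 related genes higher and 15 lower. LOXL2 and ZEB2 lost their calls (adjusted p = 0.0589 and 0.0683) and TWIST1 gained one (adjusted p = 0.031). The deviations of neighbouring samples from their group means correlated at -0.03 to 0.14 across probe sets, which cannot exclude a batch that affects some genes. Because the labels name no pairing, the block is not used elsewhere.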
